A study of Mus musculus with 38 samples.

Results

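Desmosomes are the button-like junctions that rivet neighbouring keratinocytes together and anchor their keratin filaments. Across the gap, desmosomal cadherins of the desmocollin and desmoglein types bind each other. Inside the cell their tails hold the armadillo proteins plakoglobin and plakophilins, which in turn bind desmoplakin, the plakin that tethers keratin. In stratified epidermis the cadherins change with layer: Dsc3 and Dsg3 are known from basal cells, Dsc1 and Dsg1 from cells that differentiate, and Dsc2 and Dsg2 are the broadly expressed pair.

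The 10 desmosome genes described here are Dsc1, Dsc2, Dsc3, Dsg1a, Dsg2, Dsg3, Pkp1, Pkp3, Jup (plakoglobin) and Dsp (desmoplakin), out of 21938 protein-coding genes of the GENCODE M21 annotation on 21 chromosomes. They were chosen by name, for their place in the junction. For each one, intervals called for 2 histone marks were collected wherever they reached into the gene body or the 20 kb on either side, on build GRCm38 (mm10). H3K4me1 marks primed and active enhancers, and H3K27ac marks active enhancers and promoters.

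MINT-ChIP, a barcoded chromatin immunoprecipitation for small numbers of sorted cells, had been run on epidermal stem cells (EpdSCs) from the back skin of male K14rtTA; TRE-myc-Sox9 mice, in which doxycycline (DOX) switches on MYC-tagged SOX9 wherever the Krt14 promoter drives rtTA. Cells high in CD49f and Ly6A and negative for CD34, CD31, CD45, CD117 and CD140a were sorted before DOX (D0) or after 1, 2, 6 and 12 weeks of it (W1, W2, W6, W12). DOX began at postnatal day 21, except that W12 came from newborn skin grafted onto immunocompromised hosts and induced after healing, so that W12 and the graft cannot be told apart. The H3K4me1 culture lists came from cultured keratinocytes of newborn skin (labelled K14rtTA; TRE-myc-Sox9varients) that carried rtTA and were transduced with lentivirus for 1 SOX9 form and selected with puromycin. They were kept without DOX or given DOX to induce wild-type SOX9 (WT), SOX9 lacking its DNA-binding domain (ΔHMG) or SOX9 lacking its transactivation domain (ΔTA). Of the 38 labelled samples, 12 were H3K27ac, 12 H3K4me1, 12 total H3 (not used here) and 2 culture, and each group was digested with high and with low MNase. By their titles, the D0, W1 and W12 samples pool several replicates, and those of W12 also carry W2 replicate 1.

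The authors merged replicates before calling, so that each mark and condition has 1 list and 14 lists were used. No spread between replicates exists in them, and every comparison below is a description without a test. A member was counted as risen or fallen where the bases covered by intervals in its window differed at least 1.5-fold from D0, or in culture from the list without DOX. A gene covered in only 1 of the compared lists was counted as past the limit. The same count over all protein-coding genes covered in either list is given beside it as the background. Where 4 values follow a D0 value, they run in the order W1, W2, W6 and W12. All skin comparisons share the D0 list and all culture comparisons share the list without DOX. That list is of cells with the WT construct, so for ΔHMG and ΔTA the construct and its induction cannot be told apart. In these pooled cells, fewer marked cells and less mark per cell cannot be told apart.

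The sorted cells carried H3K27ac at basal keratinocyte markers and also at most of the suprabasal markers read. An H3K27ac peak lay within 1 kb of a start site for 4 of 4 basal markers (Krt5, Krt14, Trp63, Krt15) in the lists from D0 to W6 and for 3 of 4 at W12, where Krt15 had none. Of 4 suprabasal markers, Krt10, Krtdap and Sbsn had one in every list and Krt1 in no list. No promoter peak was listed for 3 immune or 3 fibroblast markers in any list. Pecam1 (endothelium) had one at W6 and W12, Pmel (melanocytes) at D0, W1 and W2, and Dct (melanocytes) at W1. The H3K27ac lists held between 29081 (W2) and 33985 (W12) peaks and differed in depth: the genome-wide background of the caller corresponded to 0.299 overlapping fragments at W1, 0.412 at W12, 0.425 at W2, 0.501 at D0 and 0.677 at W6. The highest peak of the D0 list rose to 141 overlapping fragments, against 53 to 82 in the later lists, so folds are compared by their rank within a list. The lowest −log10 q was between 1.30 and 1.39 in each of the 5 lists.

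The 10 genes sit at 5 places in the genome. The 6 cadherin genes share a cluster on chromosome 18, with Dsc3 (19960930 to 20002351), Dsc2 (20030633 to 20059554) and Dsc1 (20084184 to 20114871) on the minus strand and Dsg1a (20310811 to 20343350), Dsg3 (20510274 to 20547459) and Dsg2 (20558074 to 20604521) on the plus strand. Windows of neighbours overlap there: Dsc1 and Dsc2 share 15371 bp, Dsc2 and Dsc3 11719 bp, and Dsg2 and Dsg3 29386 bp. The union of all 10 windows spans 697 kb in 7 stretches. Dsg1a also has close relatives beside it, Dsg1b and Dsg1c, and how reads that fit several copies were placed is not given in the sources used here.

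Most desmosome genes carried wide H3K27ac. At D0, H3K27ac peaks covered 115 kb of the 697 kb, or 16.5%. By the share of the window covered, 6 of the 10 members (Dsc3, Dsg3, Pkp1, Pkp3, Jup, Dsp) stood at or above the 90th percentile of protein-coding genes at D0, and the median member stood at percentile 95.4. In the later lists the median stood at percentiles 94.3, 93.2, 91.0 and 97.8. Summed coverage was 115 kb at D0, then 113, 111, 116 and 90.5 kb. The total thus changed little through W6 and was lowest in the grafted W12 skin, where the whole list also covered the fewest bases. As a share of all bases in each list, the loci made up 0.421% at D0, then 0.384%, 0.346%, 0.382% and 0.392%. By that share the lowest was W2. Dsc1 and Dsc2 were the 2 members with little or no H3K27ac at D0.

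**Figure D1:**
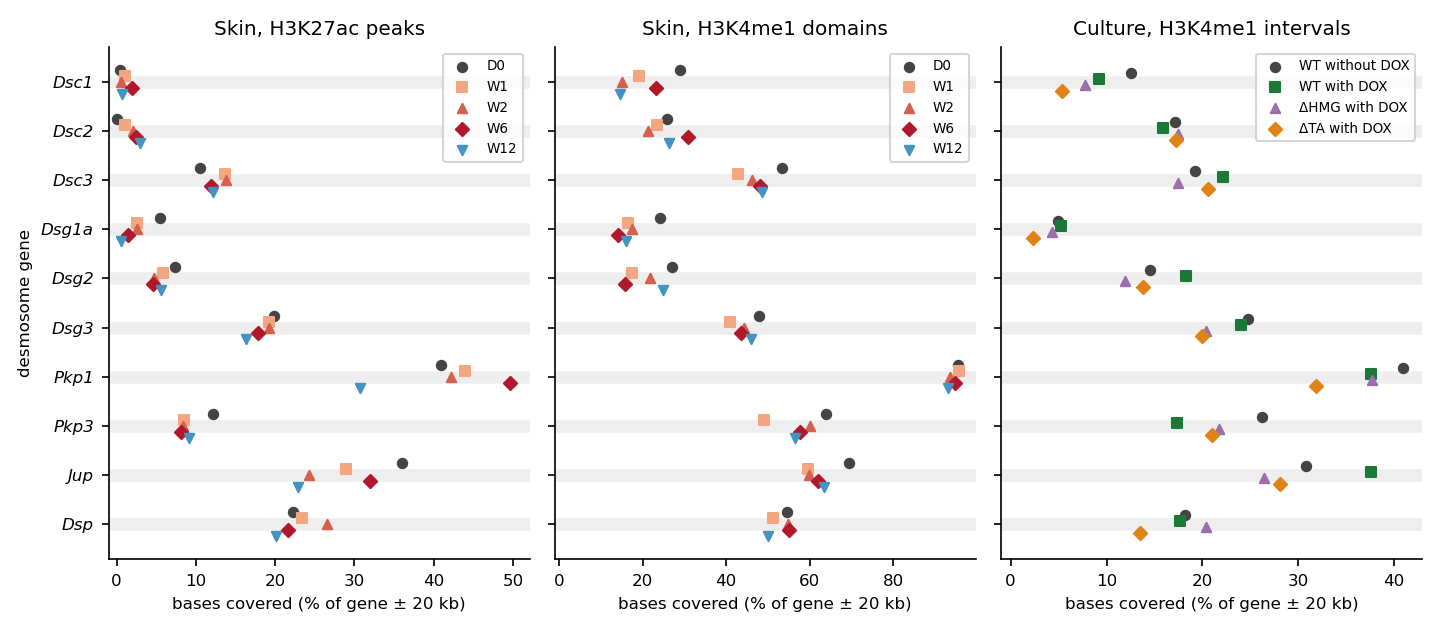
Bases covered by intervals of each list, as a percentage of the window (gene body with 20 kb on both sides), for the 10 desmosome genes, with 1 point per pooled list and no error bars because each list merges its replicates. Pkp1 has the highest percentage of the 10 genes in each of the 14 lists, and Dsg1a H3K27ac drops from 5.54% at D0 to 0.54% at W12.

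A peak at the start site was the rule. H3K27ac within 1 kb of a start site was listed for 8 of 10 members at D0, then for 8, 9, 10 and 8. Over all protein-coding genes the share was 44.5% at D0, then 43.1%, 44.1%, 48.4% and 36.2%. The members without one were Dsc1 and Dsc2 at D0 and W1, Dsc1 at W2, and Dsc1 and Dsg1a at W12.

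Among the desmocollins, Dsc3 stayed within the limit. H3K27ac covered 8623 bp of its window at D0, then 11095, 11222, 9700 and 9908 bp, which is between 1.12 and 1.30 times D0 and was not counted as risen in any list. Its strongest peak spanned the start site in all 5 lists and held 54 overlapping fragments at D0 (95% Poisson interval 40.6 to 70.5, which covers counting error only here and below), then 27, 21, 37 and 27. This peak was within the top 0.685% of its list at W1 and the top 0.683% at W12, and within the top 6.94% at W2. A second peak held in all lists lay at the 3' end of the gene, 41.4 kb from the start. A region of 2446 bp centred 3.9 kb upstream of the Dsc3 start (20004776 to 20007221) had no peak at D0 and 1 in each later list, with 10, 9, 12 and 8 fragments from W1 to W12.

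Dsc2, the desmocollin of simple and stratified epithelia, had no H3K27ac peak in its window at D0. The later lists covered 766, 1431, 1654 and 2053 bp in time order, so Dsc2 was counted as risen in 4 of 4 comparisons. With no bases covered at D0, any later peak counts as a rise. The W1 peak held 4 fragments. A start-site region (20058896 to 20059935) was listed from W2 on, with 7 fragments at W2 (2.81 to 14.4), 11 at W6 (5.49 to 19.7) and 7 at W12. These counts sit near the calling limit, which was 4 or 5 fragments in those lists. H3K4me1 was already present over this region at D0 and in every other skin and culture list.

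Dsc1, the desmocollin of the upper layers, had 1 weak peak at D0 (6 fragments, 287 bp, 8.2 kb into the gene), which no later list had. A different region 4.4 kb into the gene (20109644 to 20110693) was listed from W1 on, with 3, 7, 8 and 9 fragments. Covered bases were 287 at D0, then 734, 420, 1418 and 448. Dsc1 was counted as risen at W1, W6 and W12, at 2.56, 4.94 and 1.56 times D0. All of these are short and shallow, and W6, which covered the most, also had the highest background of the lists. With the H3K27ac lists cut to equal length by score, Dsc1 at W1 turned from risen to fallen. Its H3K4me1 went from 20400 bp at D0 to 13600, 10600, 16400 and 10400 bp later, and was counted as fallen at W1, W2 and W12.

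Dsg1a, the desmoglein of differentiating layers, was the 1 member counted as fallen for H3K27ac at all 4 times. With 50 kb flanks, which take in neighbouring loci, it was not counted at W2. H3K27ac covered 4022 bp at D0, then 1843, 1885, 1090 and 393 bp. Against D0 these are ratios of 0.458, 0.469, 0.271 and 0.098. All 4 later values lie below the D0 value, which the 4 comparisons share. The share of all protein-coding genes fallen at all 4 times is not given here. Of the close relatives, Dsg1b was counted as fallen at W1 (background 22.4%) and W6 (14.5%), and Dsg1c at W12 alone (42.7%).

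At D0 the Dsg1a window held 3 regions. A start-site region (20310410 to 20311517) held 11 fragments at D0 (5.49 to 19.7), then 5, 5 and 11, and had no peak at W12. An intronic region 1.7 kb into the gene (20311883 to 20313049) held 16 fragments at D0 (9.15 to 26.0), the highest count among D0 regions that at least 3 later lists lacked, and was in no later list. A further intronic region, 7.2 kb in, held 11 fragments at D0, 6 at W1 and 8 at W2 and was absent from W6 and W12. H3K4me1 still lay over all 3 regions in every skin list, while the covered H3K4me1 of the window went from 17600 bp at D0 to 12000, 12600, 10200 and 11600 bp later and was counted as fallen at W6 and W12.

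Dsg3, the basal desmoglein and pemphigus vulgaris antigen, had H3K27ac over 15379 bp at D0, then 14826, 14800, 13809 and 12643 bp. No comparison passed 1.5-fold. Its start-site peak held 51 fragments at D0, then 22, 28, 35 and 24, and an intronic region 7.3 kb in was likewise in all 5 lists.

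Dsg2, the desmoglein of simple epithelia and heart, had H3K27ac over 6384 bp at D0, then 5026, 4092, 4010 and 4863 bp. It was counted as fallen at W2 and W6, at 0.641 and 0.628 times D0. The strongest region between Dsg3 and Dsg2, centred 3.4 kb upstream of the Dsg2 start (20553080 to 20556171), lies in the windows of both. It held 35 fragments at D0 (24.4 to 48.7), 10 at W1 (4.80 to 18.4), 8 at W2 (3.45 to 15.8) and 30 at W12 (20.2 to 42.8), and at W6 its fold lay off the even steps and gave no count. These counts are not scaled for depth, which differed between the lists, so their intervals cannot be compared from list to list. By rank it stood in the top 5.45% of the D0 list, the top 19.4% at W1, 54.1% at W2, 31.3% at W6 and the top 0.383% at W12.

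**Figure D2:**
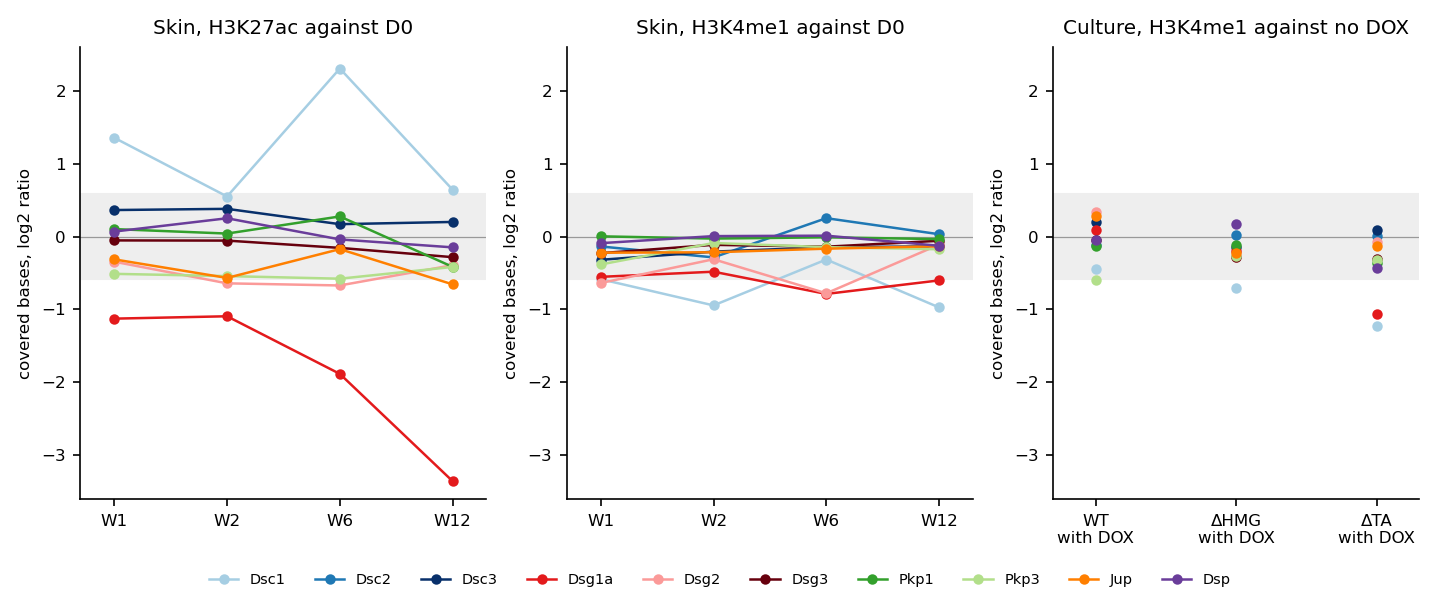
Log2 ratio of covered bases to D0 in skin and to the list without DOX in culture for the desmosome genes, with the grey band marking differences under 1.5-fold. Dsc2 is missing from the H3K27ac panel because its D0 value was 0. For H3K27ac, Dsg1a runs lowest, from -1.13 at W1 to -3.36 at W12, and in culture only Dsc1, Dsg1a and Pkp3 leave the band.

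Pkp1, a plakophilin that strengthens suprabasal desmosomes, was covered more than any other member. It lies on chromosome 1 (135871395 to 135919207, minus strand). H3K27ac covered 35988 bp of its window at D0, then 38637, 37027, 43569 and 26978 bp, and the share covered stood at percentile 99.9 of protein-coding genes in each list. None of these passed 1.5-fold. H3K4me1 covered between 93.2% and 95.7% of the window in the 5 skin lists. Of 19 merged H3K27ac regions nearest Pkp1, 9 were in all 5 lists. The start-site peak held 56 fragments at D0 (42.3 to 72.7), 24 at W1, 22 at W2, 47 at W6 (34.5 to 62.5) and 16 at W12.

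Pkp1 also had 2 of the 5 regions that D0 lacked and at least 3 later lists had. One lies 14.8 kb upstream of its start between genes (135932837 to 135935092) and held 10 fragments at W1, 10 at W2 and 9 at W12 (at W6 the fold lay off the even steps and gave no count). The other lies 66.9 kb downstream at the far edge of the window, inside the neighbouring Tnnt2 gene (cardiac troponin T), from 135850999 to 135853439. It held 9 fragments at W1 (4.12 to 17.1), 14 at W2, 26 at W6 (17.0 to 38.1) and 16 at W12. The 200 bp around the highest summit of each region are shown because these are the lasting gains nearest a plakophilin. They are plus-strand GRCm38 sequence, chr1:135933496-135933695 and chr1:135852849-135853048, with capitals for a SOX word (ACAATG or ACAAAG), an AP-1 word (TGANTCA) or a GATA word (AGATAA), each on either strand.
Upstream of Pkp1: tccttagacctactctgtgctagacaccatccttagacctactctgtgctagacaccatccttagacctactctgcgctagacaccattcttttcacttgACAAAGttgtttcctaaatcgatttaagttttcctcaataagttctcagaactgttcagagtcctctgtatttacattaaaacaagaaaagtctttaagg
Downstream of Pkp1, in Tnnt2: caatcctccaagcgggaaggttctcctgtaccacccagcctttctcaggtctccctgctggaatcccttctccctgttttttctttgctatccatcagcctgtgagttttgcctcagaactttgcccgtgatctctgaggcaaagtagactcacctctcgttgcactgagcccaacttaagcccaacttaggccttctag
The upstream window holds 1 SOX word, and the window in Tnnt2 none of the 3 words. Among 200 bp windows around all summits of the W1 list, 22.4% held a SOX word, 5.37% an AP-1 word and 8.31% a GATA word, a window counting once for each kind. The upstream summit is from the W1 list and the summit in Tnnt2 from the W6 list. In the W6 list the shares were 20.4%, 4.79% and 7.05%.

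Pkp3, the plakophilin found through most living layers, lies on chromosome 7 (141078218 to 141090510, plus strand), with B4galnt4, Sigirr and Ano9 reaching into its window. H3K27ac covered 6352 bp at D0, then 4456, 4362, 4255 and 4758 bp. The ratios, 0.670 to 0.749, lie just inside the 1.5-fold limit. All later values were below D0, and under other settings Pkp3 did pass it. It was counted as fallen at W1 and W6 with lists of equal length or with intervals above the median score alone, and in all 4 later lists with neighbouring intervals joined. The start-site peak was in every list, with 76 fragments at D0 (59.9 to 95.1), 21 at W1, 27 at W2, 44 at W6 (32.0 to 59.1) and 18 at W12. The peak stood in the top 0.357% of the D0 list and the top 4.16% of the W12 list.

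Jup encodes plakoglobin, the armadillo protein shared by desmosomes and adherens junctions. It lies on chromosome 11 (100368958 to 100397763, minus strand), with Hap1, P3h4 and Fkbp10 in the window. H3K27ac covered 24761 bp at D0, then 19934, 16710, 21972 and 15718 bp, and of these W12, at 0.635 times D0, was counted as fallen while W2, at 0.675, lay just inside the limit. The start-site peak held 64 fragments at D0 (49.3 to 81.7), then 22, 38, 44 and 19. Within the gene, 9.3 kb from the start, a region in all lists held 48 fragments at D0, then 11, 18, 27 and 20. At W12 this region had the highest fold of the window (14.9, top 2.72% of the list), with 20 fragments against 19 at the start site. Their Poisson intervals, 12.2 to 30.9 and 11.4 to 29.7, overlap almost wholly.

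Dsp encodes desmoplakin, the plakin that links the plaque to keratin. It lies on chromosome 13 (38151294 to 38198577, plus strand) with Snrnp48 in its window. H3K27ac covered 19454 bp at D0, then 20400, 23150, 18930 and 17555 bp, and no comparison passed 1.5-fold. Its start-site peak had the highest fold of all members at D0, with 84 fragments (67.0 to 104). It held 23 at W1, 24 at W2, 38 at W6 (26.9 to 52.2) and 19 at W12, and ranked in the top 0.172% of the D0 list and the top 4.56% at W2. A region 6.5 kb upstream was in all 5 lists with 26, 12, 23, 20 and 11 fragments. Dsp had the most regions called in only some of the lists: 7 of its 17 were in D0 and lacking in at least 3 later lists, and 7 were in 1 or 2 later lists only.

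The upstream 250 bases of the Jup and Dsp promoters are shown because the start-site peaks of both were in every list. The RefSeq table (GRCm38.p6) held 2 of the 10 members, Jup at chr11:100397791-100398040 (minus strand) and Dsp at chr13:38151044-38151293 (plus strand). Beside them stand the 200 bp around the summits of the strongest distal regions in all 5 lists, at Jup (chr11:100387877-100388076) and Dsp (chr13:38145315-38145514), and of 2 Dsp regions that no later list had, 18.7 kb upstream (chr13:38132528-38132727) and in an intron 32.2 kb downstream (chr13:38183464-38183663). Capitals mark the SOX, AP-1 and GATA words as before.
Jup promoter: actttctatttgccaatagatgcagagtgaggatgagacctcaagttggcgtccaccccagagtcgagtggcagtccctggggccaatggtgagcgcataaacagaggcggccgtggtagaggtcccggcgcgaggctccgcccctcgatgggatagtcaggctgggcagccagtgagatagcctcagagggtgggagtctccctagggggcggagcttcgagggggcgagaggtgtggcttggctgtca
Dsp promoter: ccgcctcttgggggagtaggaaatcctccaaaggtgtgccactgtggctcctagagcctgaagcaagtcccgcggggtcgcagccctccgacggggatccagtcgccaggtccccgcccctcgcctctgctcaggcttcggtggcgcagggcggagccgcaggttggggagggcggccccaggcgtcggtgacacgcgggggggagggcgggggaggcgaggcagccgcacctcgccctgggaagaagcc
Jup distal region in all lists: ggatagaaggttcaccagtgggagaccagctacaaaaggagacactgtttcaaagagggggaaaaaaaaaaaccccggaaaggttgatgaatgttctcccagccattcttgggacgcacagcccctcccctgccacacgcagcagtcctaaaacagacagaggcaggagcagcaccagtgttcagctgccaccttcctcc
Dsp distal region in all lists: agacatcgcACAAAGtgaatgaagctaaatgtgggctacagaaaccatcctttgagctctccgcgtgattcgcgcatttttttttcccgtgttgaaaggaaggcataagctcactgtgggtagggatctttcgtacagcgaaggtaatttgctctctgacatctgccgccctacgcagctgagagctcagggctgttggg
Dsp upstream region of D0 alone: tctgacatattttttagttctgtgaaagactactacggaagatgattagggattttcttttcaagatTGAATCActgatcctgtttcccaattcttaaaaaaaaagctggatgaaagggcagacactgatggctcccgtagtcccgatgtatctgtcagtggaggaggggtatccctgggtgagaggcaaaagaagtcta
Dsp intronic region of D0 alone: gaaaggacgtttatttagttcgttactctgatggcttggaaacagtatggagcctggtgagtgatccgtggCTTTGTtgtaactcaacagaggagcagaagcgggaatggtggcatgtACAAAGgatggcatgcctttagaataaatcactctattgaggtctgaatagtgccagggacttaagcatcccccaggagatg
Neither promoter holds any of the 3 words. Over the 32851 promoters of the table, 25.2% held a SOX word, 6.75% an AP-1 word and 9.99% a GATA word in the same 250 bases, and the 2 promoters are rich in G and C (62.0% and 72.4%). The region of D0 shown upstream of Dsp holds 1 AP-1 word, and the shared distal region of Dsp 1 SOX word. The intronic region shown, which lay in no H3K4me1 domain of any list, holds 2 SOX words. Other Dsp regions of D0 alone are not shown. Among them, the window 19.4 kb upstream holds 1 SOX word. Those 2.6 kb upstream and 46.1 kb and 50.2 kb downstream hold none of the 3 words. In the loci as a whole, summit windows with a SOX word made up 28.8% at D0, against 20.6% of all D0 summits, and 21.7%, 23.6%, 19.2% and 28.6% later, against 22.4%, 22.1%, 20.4% and 23.4%. Windows with an AP-1 word made up 2.74% at D0 (2 of 73), then 10%, 9.09%, 6.41% and 15.9% (10 of 63 at W12), against 4.87%, 5.37%, 5.36%, 4.79% and 5.36% of all summits. Windows with a GATA word made up 8.22%, 6.67%, 9.09%, 2.56% and 7.94%, against 7.17%, 8.31%, 8.22%, 7.05% and 8.71%. With counts this small these are descriptions, and a word match is not a bound site.

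Counted gene by gene, 1 to 2 members lay past 1.5-fold in each direction at each time for H3K27ac. Of the 10 members, 2 had risen at W1 (Dsc1, Dsc2; background 22.0%) and 1 had fallen (Dsg1a; 22.4%). At W2, 1 had risen (Dsc2; 25.8%) and 2 had fallen (Dsg1a, Dsg2; 19.4%). At W6, 2 had risen (Dsc1, Dsc2; 31.1%) and 2 had fallen (Dsg1a, Dsg2; 14.5%). At W12, 2 had risen (Dsc1, Dsc2; 21.2%) and 2 had fallen (Dsg1a, Jup; 42.7%). In total 5 members passed the limit in some comparison and 5 (Dsc3, Dsg3, Pkp1, Pkp3, Dsp) in none at these settings. The share of all protein-coding genes past the limit in some comparison is not given here, so these 2 totals are descriptions only. The median log2 ratio of the members from W1 to W12 was -0.05, -0.06, -0.16 and -0.39, beside -0.02, 0.09, 0.21 and -0.44 over all protein-coding genes, among genes covered in both lists, which leaves out Dsc2. With genes covered in 1 list alone placed at the extremes, the members' medians were 0.0078, -0.0072, -0.10 and -0.34, beside -0.02, 0.08, 0.22 and -0.41.

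H3K4me1 domains covered 350 kb of the 697 kb at D0, then 304, 311, 324 and 317 kb. No member was counted as risen in any list, against backgrounds from W1 to W12 of 3.51%, 10.6%, 9.04% and 9.23%. Fallen members numbered 2 at W1 (Dsc1, Dsg2; background 21.8%), 1 at W2 (Dsc1; 22.4%), 2 at W6 (Dsg1a, Dsg2; 21.8%) and 2 at W12 (Dsc1, Dsg1a; 23.8%). Dsg2 went from 23327 bp at D0 to 15000, 18800, 13600 and 21600 bp later. The Dsc1 value at W1 sits exactly at the limit. All falls past the limit were thus at 3 cadherin genes, and Dsc3, Dsg3, the plakophilins, Jup and Dsp stayed within it. With domains above the median score alone, 1 member was counted as risen at W6. Median log2 ratios of the members, -0.27, -0.21, -0.15 and -0.13 from W1 to W12, stood beside -0.23, -0.15, -0.18 and -0.21 over all genes.

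Peak by peak, D0 had 73 H3K27ac peaks in the union of windows. Of these 25, 23, 19 and 30 had no overlapping peak in the 4 later lists, which is 34.2%, 31.5%, 26.0% and 41.1%. Over all D0 peaks of the genome the share lost was 37.4%, 38.6%, 37.8% and 53.7%. Newly listed peaks made up a smaller share than over the genome: 11 of 60 peaks at W1 (18.3%, against 41.3% over the whole list), 12 of 55 at W2 (21.8% against 40.1%), 24 of 78 at W6 (30.8% against 39.8%) and 18 of 63 at W12 (28.6% against 56.2%). No test of these differences was made, since peaks of one list are not replicates. Wide or dense peaks overlap more readily, and H3K27ac covered 16.5% of these windows at D0. Neither peak width nor peak density was matched to the whole lists, so the shares are descriptions only.

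Merged over the 5 lists, the peaks formed 83 regions. All 5 lists shared 25 of them, which were wide (median 4672 bp) and carried 84.1% of the covered bases at D0, then 90.6%, 87.4%, 82.3% and 89.1%. Of the rest, 20 were in D0 and lacking in at least 3 later lists (15 of them in all 4), 7 were lacking in 1 or 2, 26 were not in D0 but in 1 or 2 later lists, and 5 were not in D0 but in at least 3. Regions of the shared class touched a start site of any gene in 11 of 25 cases and those of the largely lost class in 0 of 20. Some of the shared ones touched the start of another gene alone (Gm28883, Gm36938, Gm12348 or P3h4). The largely lost regions were also narrower (median 459.5 bp), and width was not matched. All 25 shared regions also lay in H3K4me1 in all 5 skin lists and in all 4 culture lists. The same held in skin for 5 of the 5 lasting gains, so each overlapped H3K4me1 at D0 by at least 1 bp. H3K4me1 domains covered 50.2% of the windows at D0. Shares of these classes over all H3K27ac regions of the genome are not given here, so the counts are descriptions only. Of the 20 largely lost regions, 18 lay in H3K4me1 at D0 and 13 in every skin list. By nearest member, 7 of these 20 were at Dsp, 4 at Jup, and 2 each at Dsc3 and Pkp3. Dsc1, Dsg1a, Dsg2, Dsg3 and Pkp1 had 1 each and Dsc2 had 0.

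**Figure D3:**
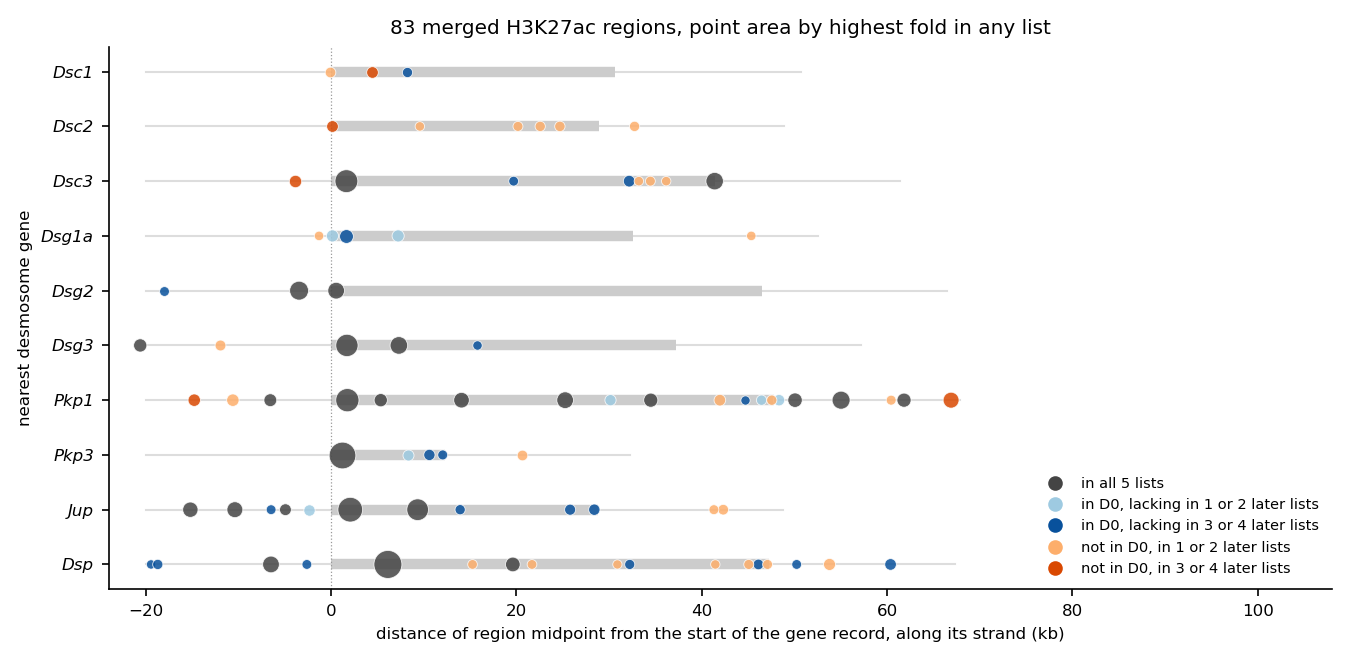
The 83 merged H3K27ac regions by distance of their midpoint from the start of the nearest desmosome gene along its strand (kb), with thick grey bars for gene bodies, thin lines for the 20 kb flanks, colour for presence in the 5 lists and point area for the highest fold. The largest points sit near the starts of Dsp, Pkp3, Jup, Pkp1, Dsc3 and Dsg3 and are dark grey, and Dsg1a, Dsc1 and Dsc2 have no dark grey point.

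The changed regions that gave a count rested on few reads. At D0, the 24 shared regions with a count held a median of 26 overlapping fragments (range 9 to 84). Those lacking in 1 or 2 later lists held a median of 8. Of the 20 lacking in at least 3, only 12 gave a count at D0. Their median was 5 (range 4 to 16), where the lowest count of any D0 peak was 4. Where a count was given, regions not in D0 and in 1 or 2 later lists held medians of 4, 4, 7 and 5.5 fragments. The lasting gains with a count held medians of 9.5, 9, 11.5 and 9. Of 222 region and list pairs with a fold, 23 lay off the even steps and gave no count. W6, the list with the highest background, had the most new peaks (24) and W1, with the lowest, had the fewest (11), and the part of depth in these gains and losses was not tested.

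**Figure D4:**
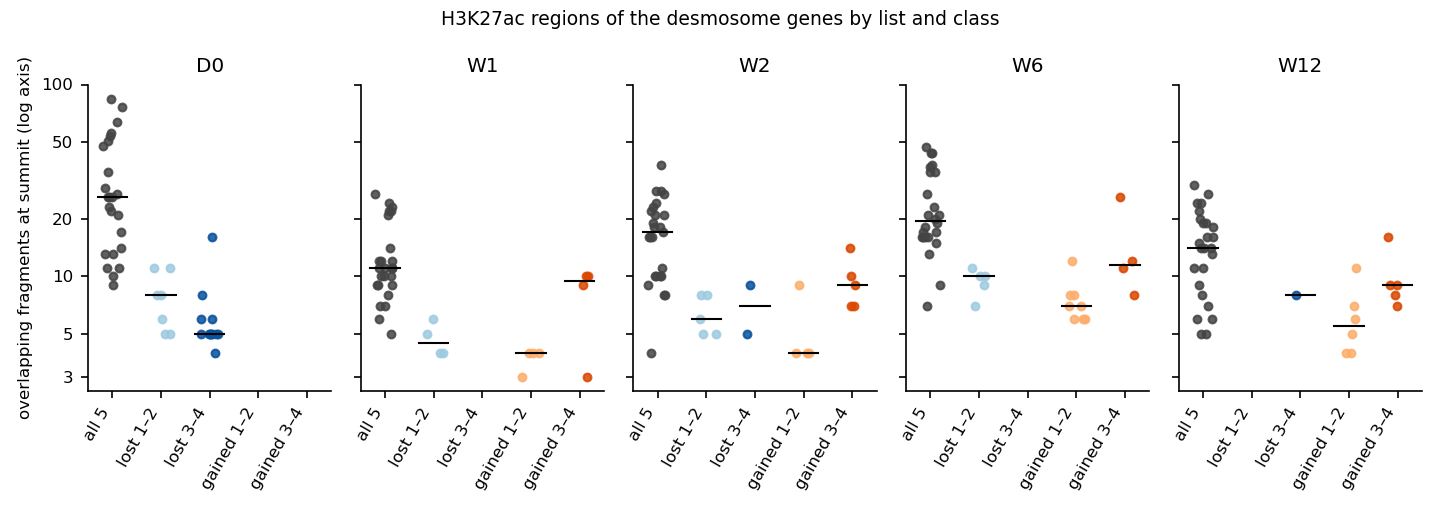
Overlapping fragments at the summit of each H3K27ac region of the desmosome genes (log axis), 1 panel per list, grouped by presence in the 5 lists, with the black line at the median. Regions without a count are left out. Among the rest, regions of all 5 lists reach from 9 to 84 fragments at D0. That is above nearly all of the 12 largely lost regions with a count, whose median is 5.

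In culture, H3K4me1 intervals covered 145 kb of the windows without DOX, 145 kb with WT SOX9, 129 kb with ΔHMG and 120 kb with ΔTA. No member had risen with any form (background 18.6% with WT, 10.9% with ΔHMG and 18.0% with ΔTA). With WT SOX9, 1 of 10 members had fallen (Pkp3; background 10.7%), with ΔHMG 1 (Dsc1; 7.24%) and with ΔTA 2 (Dsc1, Dsg1a; 6.84%). Pkp3 covered 13691 bp without DOX, 9082 bp with WT, 11379 bp with ΔHMG and 10985 bp with ΔTA. Dsc1 covered 8908 bp, 6525 bp, 5484 bp and 3789 bp in the same order, the lowest with ΔTA. Dsg1a covered 3563 bp, 3786 bp, 3106 bp and 1704 bp, so the WT value lay above the uninduced one and the ΔTA value below it.

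The other members moved less in culture. Dsc2 covered 11843 bp without DOX, 10922 bp with WT, 12013 bp with ΔHMG and 11884 bp with ΔTA, and Dsc3 covered 15658 bp, 18031 bp, 14241 bp and 16740 bp. Jup ranged from 18205 bp with ΔHMG to 25827 bp with WT, and Dsp from 11736 bp with ΔTA to 17823 bp with ΔHMG. Pkp1 covered 35974 bp, 33036 bp, 33045 bp and 27932 bp. Median log2 ratios of the members were -0.04 with WT, -0.21 with ΔHMG and -0.31 with ΔTA, beside 0.08, 0.02 and 0.09 over all genes. Of the 10 members, 6 covered fewer bases with WT than without DOX, 8 with ΔHMG and 8 with ΔTA, beside 42.7%, 46.7% and 40.5% of all protein-coding genes covered in either list. Folds were low, with member maxima between 3.18 and 7.50, and the highest-ranking interval, between Dsc3 and Dsc2 with ΔTA, stood in the top 0.759% of its list.

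Other genes of the junction were read in the same way. In a list of 9 (Dsg1b, Dsg1c, Dsg4, Pkp2, Pkp4, Perp, Evpl, Ppl, Cdsn), Pkp2, the plakophilin of heart and simple epithelia, had no H3K27ac peak in any list. Of the other 8, 1 had risen and 2 had fallen at W1 (backgrounds 22.0% and 22.4%), 2 and 1 at W2 (25.8% and 19.4%), and 1 and 1 at W6 (31.1% and 14.5%). At W12 none had risen and 5 had fallen, where 42.7% of all genes had fallen. Evpl (envoplakin, a precursor of the cornified envelope) was past the limit in 3 later lists, with 6998 bp at D0, then 4534, 3801, 5263 and 3811 bp.

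In culture, 1 of these 9 had risen with WT SOX9 (Dsg1b, background 18.6%), 1 had fallen with ΔHMG (Dsg1c, 7.24%) and 1 with ΔTA (Ppl, periplakin, 6.84%), all 3 named after their values were seen.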

How the data were processed

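MINT-ChIP intervals of H3K27ac and H3K4me1 in sorted EpdSCs at 5 time points, and of H3K4me1 in 4 culture conditions, were analysed; total H3 and 14 barcode files were not used here. Groups came from the labels. Per the study's methods and the submitters' processing notes, the authors split reads by barcode, trimmed them with Skewer, aligned them to mm10 with Bowtie2 (2.2.9), removed duplicates with Picard, merged replicates with SAMtools (1.9) and called peaks with MACS2 (2.1.1) and domains with epic2 on merged reads. The notes also list SICER. Caller settings are not given in the sources used here, though the name of the W12 H3K27ac list alone carries a cutoff tag, and the culture lists have the layout of MACS2 broad peaks. The deposited H3K4me1 lists of skin give a p-value per domain. The deposited H3K27ac and culture lists hold for each interval a score, a fold (linear ratio over local background), the −log10 of p and q and, for H3K27ac, the summit offset.

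Covered bases, counts and highest folds were taken over each gene body with 20 kb flanks (overlap from 1 bp, python 3.11.15, pandas 2.3.3). A fold equals pileup plus 1 over background plus 1, so even steps returned overlapping fragments for 82.3% to 96.0% of the peaks of a list within 0.002 in fold. Replicates were pooled by the authors, so no test could be run. Members and lists were chosen with earlier results of these data known. Regions planned for naming were each member's strongest H3K27ac peak, start-site peaks, and regions gained or lost in at least 3 later lists. Of the lost regions and the start-site peaks only some were named. Genes of other lists were named where past the limit in at least 3 later lists. Calls of Dsg1b and Dsg1c, and of the other genes named in culture, were added after values were seen. Further regions present in all 5 lists, and the fragment counts, were added after values were seen. Interval functions and steps were tested on simulated data. Alternatives were 50 kb flanks, 50% overlap, intervals above the median score, lists of equal length, joining below 1000 bp, 2-fold limits and a background of all annotated genes. Counts over a hemidesmosome gene list are not reported here.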

Additional observations from a re-analysis of the deposited data

How the results depend on the processing

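No paired analysis was possible because each list pools its replicates, and for the same reason no replicate could be left out and no spread or test exists. Of 227 values recomputed under 6 alternatives, 169 stayed within 1.5-fold of the value reported, 53 moved further and 5 changed sign. With 50% overlap all stayed within 1.5-fold. A background of all annotated genes was also computed. Dsg1a was counted as fallen for H3K27ac at all 4 times under each alternative, except with 50 kb flanks at W2. Dsc2 was counted as risen each time, except at W1 and W2 above the median score. Its window with 20 kb flanks had no covered bases at D0. Any later peak there counts as risen at the 1.5-fold and the 2-fold limit alike, so alternatives with that window add no support. The cause of the moves below was not tested. Apart from the 2-fold limit, member counts under the alternatives are given without a background. Peak counts under wider flanks or a score cut come from larger windows or shorter lists, and their totals are not given here.

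With 50 kb flanks, H3K27ac members risen were 1 at W1 and 1 at W6, and fallen 0 at W2 and 1 at W6. H3K4me1 members fallen were 0 at W1, 1 at W6 and 0 at W12, and culture members fallen 0 with WT, 0 with ΔHMG and 1 with ΔTA. Peaks gained were 19 at W1, 37 at W6 and 32 at W12. With intervals above the median score, H3K27ac members risen were 0 at W1, 0 at W2 and 1 at W6, and 2 had fallen at W1. H3K4me1 members fallen were 1 at W1, 2 at W2 and 1 at W12, and 1 had risen at W6. In culture 1 had risen and 2 had fallen with WT and likewise 1 and 2 with ΔHMG. Peaks lost were 10, 11, 9 and 14 in time order and peaks gained 4 at W1, 6 at W2 and 6 at W6. The log2 ratio of all covered H3K27ac bases at W6 turned to -0.0995.

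With lists of equal length, 1 H3K27ac member had risen and 3 had fallen at W1, and 1 H3K4me1 member had fallen at each of W1, W6 and W12. The log2 ratio of covered bases turned to -0.0100 for H3K27ac at W6 and to -0.0226 for culture WT. With intervals under 1000 bp apart joined, H3K27ac members fallen were 2 at W1 and 4 at W2, peaks lost 16 at W1, 15 at W2 and 17 at W12, and peaks gained 6 at W1. The same ratios became -0.0015 and -0.0075. With a 2-fold limit, 1 H3K27ac member had fallen in each list from W2 on (backgrounds 12.5%, 9.46% and 28.6%), with 1 risen at W12 (16.8%). No H3K4me1 member had then fallen (0 at W1, W2, W6 and W12, with backgrounds of 9.67%, 11.4%, 9.89% and 11.0%). Nor had any culture member with WT (0, background 5.51%) or ΔHMG (0, background 3.04%).

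Depth limits the weak regions: a peak of 3 to 7 fragments has a Poisson interval that reaches the lowest count a list reports, so its absence from another list is not evidence that the mark was absent.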
